A study of Mus musculus with 22 samples.

Results

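The interferon-inducible GTPases were followed in CD8+ T cells of mice with or without a conditional change in Tcaim. A set of 9 genes was taken by symbol, the guanylate-binding proteins Gbp2, Gbp3, Gbp5, Gbp6 and Gbp7 and the immunity-related GTPases Irgm1, Irgm2, Igtp and Iigp1, out of 46603 genes in the count table. Naive CD8+ T cells were purified from lymph nodes and spleen by magnetically depleting the rest. RNA was sequenced at once (naive), or following stimulation for 24 h or 48 h with antibodies to CD3, bound to the plate, and to CD28, in solution, which engage the T cell receptor complex and its costimulator. Control (wt) and knock-in (KI) mice came from the line Tcaim KI Cd4Cre, with the genotypes wtcre and hocre, and gave 3 mice each, sequenced at all 3 times. Libraries labelled KO came from 2 mice of the line Tcaim KO Cd4Cre, genotype hocre, sequenced naive and at 48 h only. The genotype names of every group contain cre, and the line names give Cd4Cre as the driver, which recombines in developing T cells, CD8+ cells included. No control of the KO line was analysed here, and the labels state no ages. KI and wt mice of experiments 1 and 3 were male and those of experiment 5 female. Both mice labelled KO, of experiments 1 and 5, were female.

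Interferons switch on these genes. Interferon gamma acts through factors that bind gamma-activated sites, and type I interferons through a complex that binds interferon-stimulated response elements, to which IRF1 also binds. Guanylate-binding proteins coat bacteria and the vacuoles of intracellular pathogens and help trigger inflammasomes. Among the immunity-related GTPases, Iigp1 is an effector that attacks such vacuoles, whereas Irgm1, Irgm2 and Igtp (also called Irgm3) are regulators that keep the effectors off the cell's own membranes. Irgm1 is also known for its part in autophagy and in the survival of activated T cells exposed to interferon gamma.

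The sequences just before the start sites are shown first because they hold matches to known interferon motifs. Whether these matches bear on the levels was not tested. RefSeq promoter windows on GRCm38.p6, from 250 bases before the start site to 50 after it, matched 7 of the 9 members by symbol, with 8 windows in all. Gbp6 and Iigp1 had none in the table. The window of Gbp5 was searched, but its bases are not printed here. Each stretch below gives the 120 bases before the start site, 5′ to 3′ on the gene's strand, with motif matches in capitals. They are from chr3:142620543-142620662 on the plus strand (Gbp2), chr3:142559924-142560043 plus (Gbp3, the upstream of 2 windows), chr3:142530216-142530335 plus (Gbp7), chr11:48871421-48871540 minus (Irgm1), chr11:58199436-58199555 plus (Igtp) and chr11:58214857-58214976 plus (Irgm2).
Gbp2: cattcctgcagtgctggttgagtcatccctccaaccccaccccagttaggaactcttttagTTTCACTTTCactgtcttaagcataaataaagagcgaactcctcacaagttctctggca
Gbp3: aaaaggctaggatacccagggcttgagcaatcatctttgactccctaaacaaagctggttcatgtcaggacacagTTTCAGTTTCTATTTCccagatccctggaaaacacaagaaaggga
Gbp7: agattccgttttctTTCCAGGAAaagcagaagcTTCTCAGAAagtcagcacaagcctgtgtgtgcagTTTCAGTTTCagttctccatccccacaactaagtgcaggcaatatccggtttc
Irgm1: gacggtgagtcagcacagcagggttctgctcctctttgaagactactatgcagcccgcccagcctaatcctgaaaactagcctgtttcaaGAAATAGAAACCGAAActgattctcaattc
Igtp: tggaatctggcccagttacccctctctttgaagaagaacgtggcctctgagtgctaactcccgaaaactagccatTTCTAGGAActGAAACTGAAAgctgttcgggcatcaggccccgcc
Irgm2: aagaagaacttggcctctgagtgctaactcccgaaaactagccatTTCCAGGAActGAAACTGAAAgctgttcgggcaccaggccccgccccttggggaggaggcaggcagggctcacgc

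The response element core was searched as a pair of GAAA runs with 2 bases between them, and the gamma-activated site as TTCNNNGAA, on both strands, and no match of either overlapped a match of the other. The core matched in a window of all 7 members, against 3.44% of the 32851 promoter windows in the table. It matched 2 overlapping times in Gbp3 and in Irgm1, and in every member but Gbp5 it ended between 15 and 55 bases before the start site. In Gbp5 it lay 165 to 156 bases before it. The gamma-activated site matched in 4 of 7 members, Gbp5, Gbp7, Igtp and Irgm2, against 8.3% of all windows, and these 4 held both motifs, as 0.454% of all windows did. Gbp5 and Gbp7 each had 2 gamma-activated sites. In Igtp and Irgm2 the same arrangement recurred, with 2 bases between a gamma-activated site and a GAAACTGAAA core. Aligned without gaps, the windows of these neighbours were identical at 184 of 270 bases (68.1%) and shared a run of 61 bases. The match is of letters in a window and says nothing about binding in these cells.

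**Figure D1:**
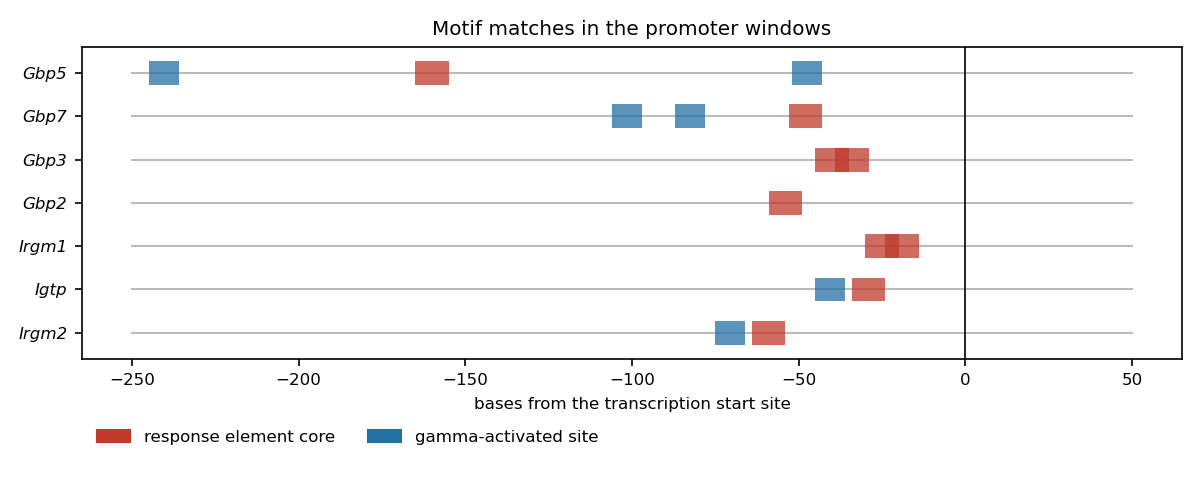
Motif matches in the promoter windows of the 7 members that have one, by distance from the transcription start site in bases. Red boxes are response element cores and blue boxes gamma-activated sites. The cores of 6 members lie within 64 bases of the start site, and that of Gbp5 begins 165 bases before it. The second window of Gbp3 held neither motif and is not drawn.

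The members lie on 4 chromosomes of GRCm38, given as whole gene spans. Gbp5 (142493978 to 142522344), Gbp7 (142530342 to 142550149), Gbp3 (142560026 to 142573209) and Gbp2 (142620602 to 142638008) follow each other on chromosome 3, and Gbp6 (105270702 to 105293698) is on chromosome 5. Irgm1 (48861968 to 48871683), Igtp (58199556 to 58207591) and Irgm2 (58199618 to 58222782) are on chromosome 11, and Iigp1 is on chromosome 18. Values are counts over a gene's exons, and some exons are shared. Gbp6 shares 1726 of its 5954 exon bases (29%) with Gm43302 on the same strand, Gbp7 shares 11.3% with the pseudogene Gm43802, and Igtp and Irgm2 share 162 bases with each other. Whether counting used strand is not given in the sources used here. Counts of these genes, and of the guanylate-binding proteins as close relatives of each other, are uncertain for that reason.

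Total counts ran from 62551905 to 93489115 a library, and a member had 733 to 133933 counts in a library, so counting error was small beside the spread between mice. All 9 passed the filter on low counts. Tcaim itself was at 138 to 260 CPM (counts scaled to the library total) in the KI libraries, 8.38 to 15.2 in wt and 5.99 to 19.6 in those labelled KO, which overlapped wt (edgeR adjusted p of 1 naive and 0.841 at 48 h). The KO label is therefore not borne out by this gene count, which does not show which exons were read. The CD8+ T cell markers Cd8a, Cd8b1, Cd3d, Cd3e, Cd3g and Trac summed to 2418 to 5103 CPM in every group. On the second principal component of 10415 genes, KO 48 h replicate 1 stood at 62.5 and wt 48 h replicate 3 at 29.1, apart from all others, which were at 7 or below. These were also the libraries with the lowest summed GTPase level at 48 h, and the number of members called is given without them for each 48 h comparison. Levels and tests of other genes and lists at 48 h were not refitted without them.

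Compared per length, on the deposited FPKM scale, Igtp and Gbp2 were the most abundant members in all 8 groups. In wt naive cells Igtp stood at 118 ± 6.35 FPKM (SD, n = 3) and Gbp2 at 60.9 ± 2.83, with ranges that did not overlap. Irgm1 followed at 34.3 ± 1.36, and Irgm2 (27.8 ± 1.65) and Gbp7 (25.8 ± 2.69) overlapped each other. Gbp6, Iigp1 and Gbp3 lay between 9.37 and 18.9 FPKM in single libraries, with neighbours overlapping. Gbp5 was the lowest at 8.17 ± 0.626. At 24 h in wt, Gbp2 (503 ± 8.51) stood above Igtp (420.1 ± 22), Gbp5 had moved to sixth place at 48.2 ± 2.98, and Gbp6, Gbp7 and Gbp3 were the lowest, overlapping each other. At 48 h the upper pair overlapped in wt, KI and the libraries labelled KO.

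In wt cells the members rose together in the first 24 h. Gbp2 had 133, 131 and 123 CPM in the naive libraries of experiments 1, 3 and 5, and 1148, 1121 and 1124 at 24 h. The groups lay far apart, and the fitted change was 8.77-fold (log2 3.13 ± 0.44 SE, adjusted p = 1.18e-05). Gbp5, which promotes inflammasome assembly, had 49.7, 44.1 and 43.1 CPM naive and 276, 273 and 309.8 at 24 h, a 6.27-fold rise (adjusted p = 7.99e-08). The effector Iigp1 had 34.3, 37.7 and 24.8 CPM naive and 132, 137 and 159 at 24 h, a 4.42-fold rise (adjusted p = 0.0058). Igtp went from 191, 209.8 and 201 CPM to 734, 731 and 814 (3.79-fold, adjusted p = 8.43e-05). Every 24 h library was above every naive library for these 4 genes.

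Rises were smaller for the other members. Irgm2 rose 2.59-fold, Irgm1 2.23-fold, Gbp3 2.12-fold and Gbp6 1.72-fold, with adjusted p-values of 0.000368, 0.0047, 0.000109 and 0.00112. Gbp7 was the exception, with 125, 132 and 109 CPM naive and 94.1, 114 and 163 at 24 h (log2 0.02 ± 0.25, adjusted p = 0.96). In all, 8 of 9 members rose, against 26.3% of the 21183 genes tested that were called higher, and the median log2 change was 1.37 for the members and -0.05 for all genes tested. Leaving out any wt mouse kept the same count of 8.

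At 48 h in wt most members were still above their naive level, and lower than at 24 h. Gbp5 had 239, 189 and 259 CPM, 5.02-fold above naive (adjusted p = 2e-07), and Gbp2 had 529, 294 and 705, 3.95-fold above naive (adjusted p = 0.000581). Iigp1 (3.73-fold), Igtp (2.87-fold), Irgm2 (1.77-fold) and Gbp3 (1.63-fold) were also called higher, making 6 of 9 members against 29.5% of all genes. Gbp7 was called lower, at 71.2, 82.6 and 81.6 CPM (log2 -0.64 ± 0.25, adjusted p = 0.0389), as were 26.8% of all genes. Gbp6 (log2 0.22) and Irgm1 (log2 0.12) were not called. With both libraries that stand apart left out, 8 members were called. Some of these calls rested on single mice. Without the mouse of experiment 1 or of experiment 5, 4 members were called: Irgm2 (adjusted p = 0.106 and 0.0906) and Iigp1 (0.0611 and 0.119) dropped out each time, and Gbp7 was lost when any 1 of the 3 was left out (adjusted p = 0.0552 to 0.177).

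**Figure D2:**
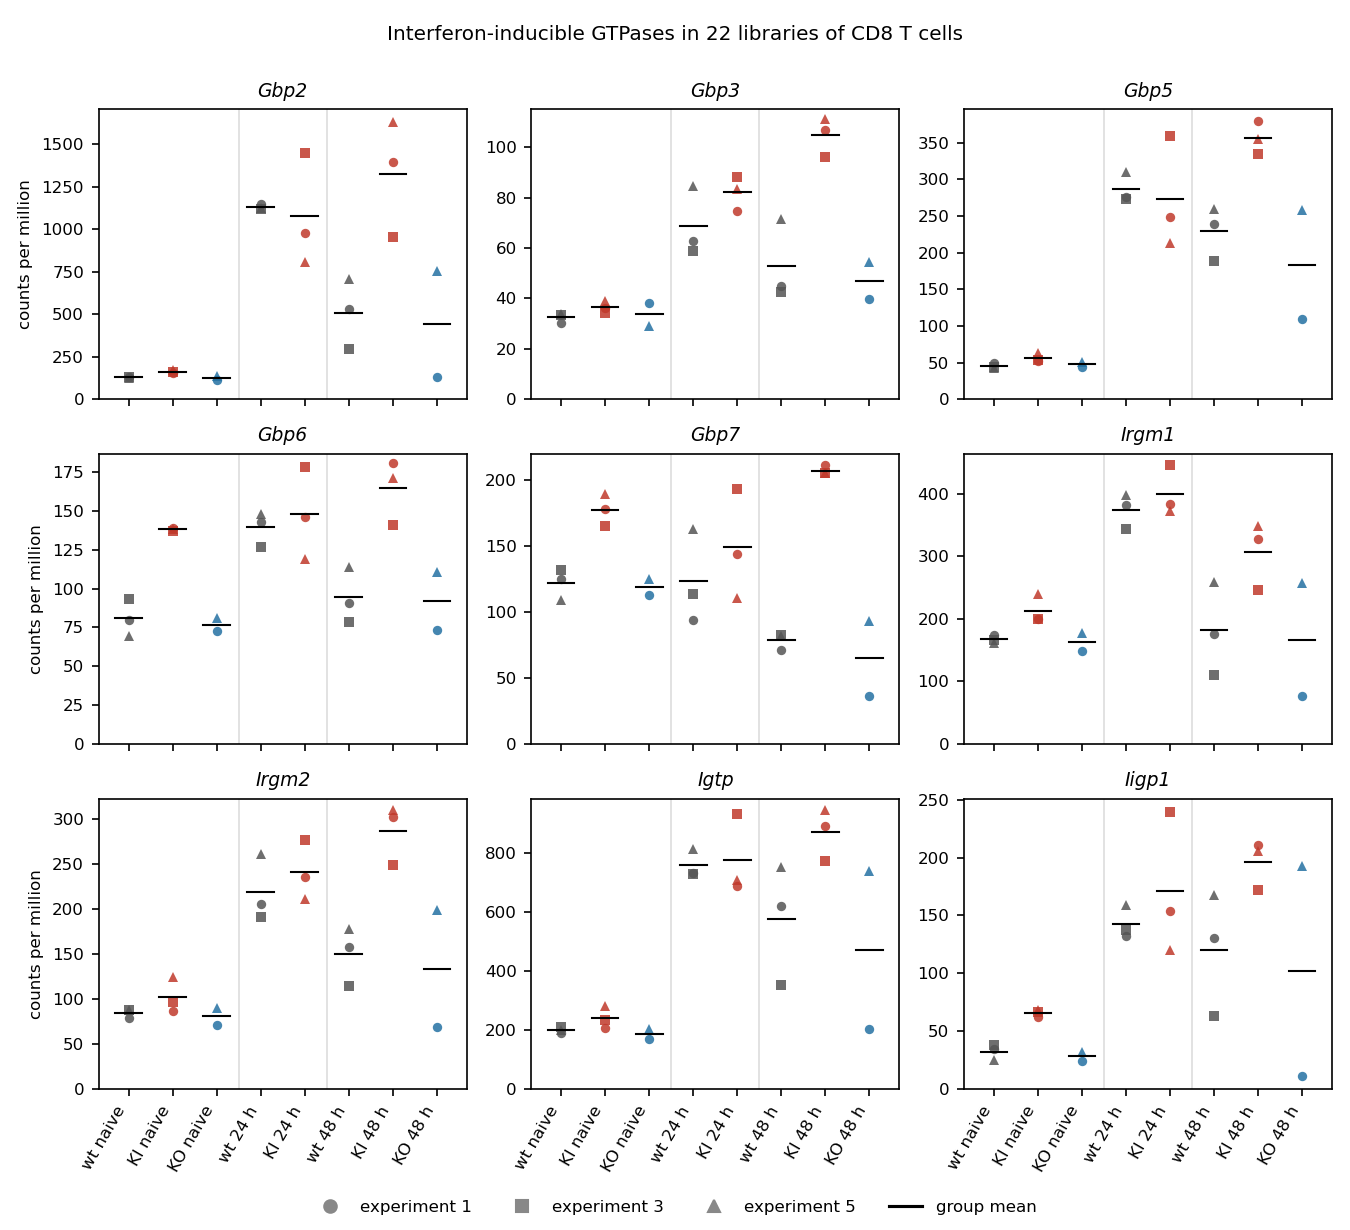
CPM of the 9 members in each of 22 libraries, on linear axes that start at 0. Marker shape gives the experiment, colour the genotype, and black bars the group mean. For Gbp2 the wt mean is 129 CPM naive, 1131 at 24 h and 509 at 48 h, and the KI mean is 1326 at 48 h. Gbp7 in KI at 48 h lies between 205 and 211 CPM, above all 3 wt libraries.

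Between 24 h and 48 h the fitted changes in wt were negative for all 9 members, with a median log2 of -0.55 against 0 for all genes. Irgm1 was the only one called, with 382, 344 and 397 CPM at 24 h and 176, 110.3 and 259 at 48 h (log2 -1.04 ± 0.31, adjusted p = 0.0463), where 3.41% of all genes were called lower. That call was lost when any 1 of the 3 wt mice was left out (adjusted p = 0.0708 to 0.316), and 3 members were called with the libraries that stand apart left out. For 6 of 9 members every 48 h library was below every 24 h library, which was so for 11.2% of all genes. Within single mice, all 9 members were lower at 48 h than at 24 h in experiments 1 and 3, and 8 of 9 in experiment 5. The members vary together, and matching shares of all genes are not given for these or the later counts within single mice. The size of the drop differed between mice. For Gbp2 it was 1.12, 1.93 and 0.67 on the log2 scale in experiments 1, 3 and 5.

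KI cells also showed a rise in the first 24 h, without Gbp6. At 24 h 6 of 9 members were called higher than in naive KI cells, against 22.9% of all genes. Gbp2 had 155, 158 and 173 CPM naive and 979, 1447 and 807 at 24 h (6.66-fold, adjusted p = 6.55e-05). Gbp5 rose 4.85-fold, Igtp 3.22-fold, Irgm2 2.35-fold, Gbp3 2.25-fold and Irgm1 1.88-fold. The Irgm1 call (adjusted p = 0.0249) was lost when any 1 of the 3 KI mice was left out (adjusted p = 0.0563 to 0.174). Iigp1, with a log2 change of 1.39 ± 0.57, had an adjusted p of 0.0634. For Gbp6 and Gbp7 the 24 h libraries overlapped the naive ones.

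After 24 h the KI mice did not share a direction. Of 9 members, 8 were higher at 48 h than at 24 h in the KI mice of experiments 1 and 5, and 7 were lower in that of experiment 3. Gbp2 changed by 0.51, -0.60 and 1.01 on the log2 scale in experiments 1, 3 and 5. By edgeR no member was called between 48 h and 24 h in KI, where 2.68% of all genes were, none had an unadjusted p under 0.05, and DESeq2 and limma called 0. Against naive cells, 6 members were called higher at 48 h (26.6% of all genes): Gbp2 8.19-fold, Gbp5 6.31-fold, Igtp 3.62-fold, Iigp1 3-fold, Gbp3 2.87-fold and Irgm2 2.8-fold. The Iigp1 call (adjusted p = 0.0297) was lost when any 1 of the 3 was left out (adjusted p = 0.0929 to 0.139). Irgm1 stood 1.45-fold above naive with an adjusted p of 0.161.

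**Figure D3:**
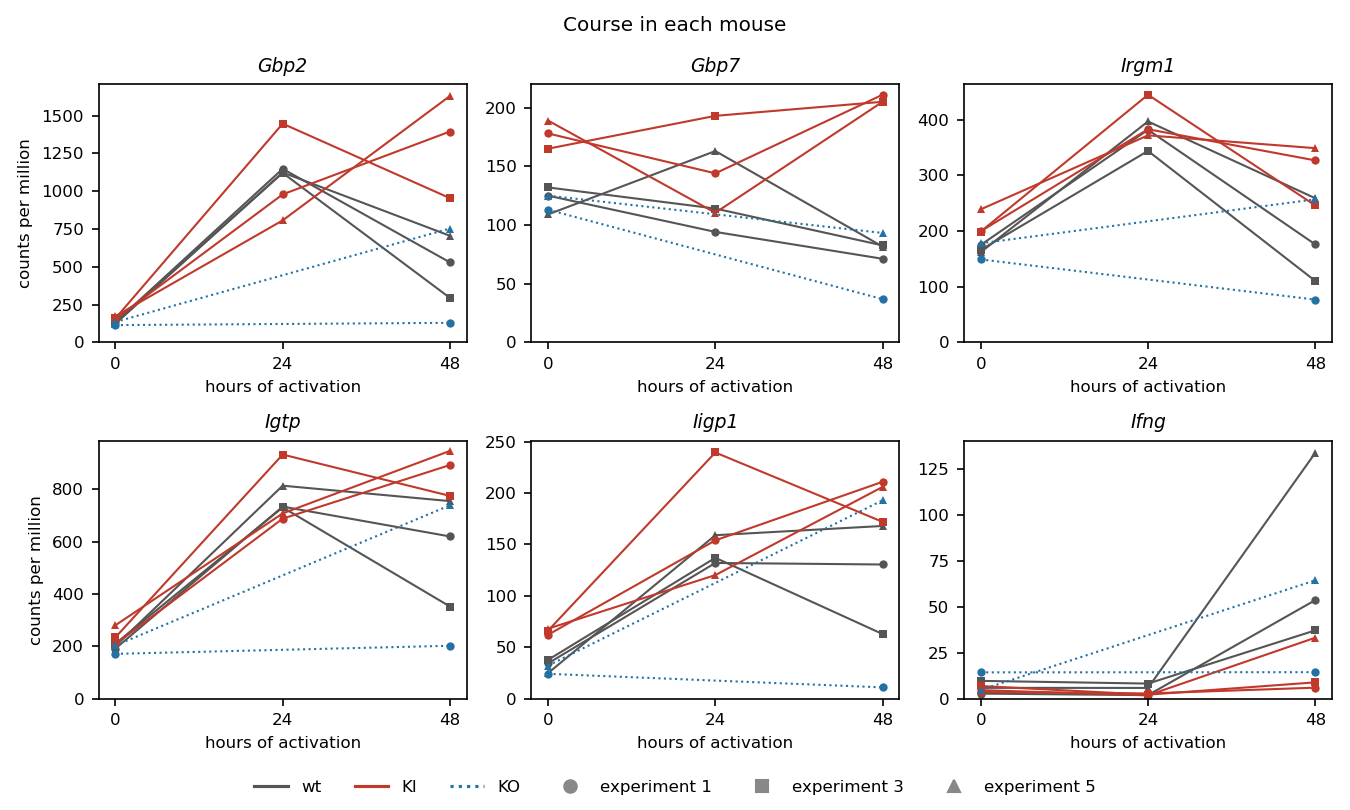
CPM over time in each mouse for 5 members and for Ifng, on linear axes that start at 0. Each line joins the libraries of 1 mouse, and dotted lines are mice labelled KO, which have no 24 h library. In wt, Gbp2 peaks at 24 h, while Ifng is highest at 48 h, at 37.2 to 134 CPM.

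KI and wt were then compared at each time, which asks whether the knock-in altered these genes before or after activation. In naive cells the fitted differences were positive for all 9 members, with a median log2 of 0.33 against 0.01 for all genes. Gbp6 had 139, 137 and 138 CPM in KI and 80.1, 93.4 and 69.5 in wt, 1.7-fold higher, with an unadjusted p of 0.000314 and an adjusted p of 0.145. Iigp1 had 62.1, 66.1 and 68 CPM in KI and 34.3, 37.7 and 24.8 in wt, 2.03-fold higher, with an adjusted p of 1. Gbp7 had 178, 165 and 189 CPM in KI and 125, 132 and 109 in wt, 1.45-fold higher, also with an adjusted p of 1. For 7 of 9 members, all but Irgm2 and Igtp, every KI library was above every wt library, which was so for 6.56% of all genes. In every experiment KI was above wt for all 9 members, by 0.02 to 1.45 on the log2 scale. The members vary together, so they are not separate observations, and the share of all genes for which this held is not given here.

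None of the 9 passed the edgeR threshold in naive cells, where 0.113% of all genes did. At an unadjusted p under 0.05 there were 2, DESeq2 called 1 (Gbp6, adjusted p = 0.0306), and limma called 0. Fitted on these groups alone, Gbp6 and Iigp1 passed (adjusted p = 0.0221 and 0.0308). Markers of memory-phenotype CD8+ T cells summed to 687 to 873 CPM in naive KI and 413 to 542 in naive wt, a list of 8 genes of which 4 had positive differences and none was called. Ly6c2 made up most of that gap, at 359 to 477 CPM in KI and 117 to 147 in wt. The part of such cells in the GTPase levels was not tested. In bulk RNA, fewer cells of a type and less RNA per cell cannot be told apart.

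At 24 h the genotypes overlapped for all 9 members. The fitted differences ran from -0.07 to 0.27 on the log2 scale. Their 95% intervals were widest for Iigp1, from -0.92 to 1.45, and narrowest for Gbp6, from -0.28 to 0.44. By edgeR no member was called (0.00472% of all genes were), none had an unadjusted p under 0.05, and DESeq2 and limma called 0. Within experiments 14 of 27 values, of members that vary together, were above 0, and for 0 members was KI above wt in every experiment. KI was above wt in experiment 3, with Gbp2 at 1447 against 1121 CPM, and below it in experiment 5, with 807 against 1124.

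At 48 h the fitted differences were positive for all 9 members (median log2 0.80, against 0 for all genes) and 3 passed. Gbp7 had 211, 205 and 205 CPM in KI and 71.2, 82.6 and 81.6 in wt, a 2.64-fold difference (log2 1.40 ± 0.26, adjusted p = 0.00458). Gbp3 had 107, 95.9 and 111 CPM in KI and 44.8, 42.5 and 71.7 in wt (1.97-fold, adjusted p = 0.00568). Gbp6 had 181, 141 and 171 CPM in KI and 90.8, 78.6 and 114 in wt (1.74-fold, adjusted p = 0.0138). These 3 of 9 were called, against 2.28% of all genes called higher, and none was called lower.

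The other 6 had positive differences that did not pass. Gbp2 had 1395, 954 and 1630.3 CPM in KI and 529, 294 and 705 in wt, 2.6-fold, with an adjusted p of 0.0652. Irgm2 had 302, 248 and 310.1 CPM in KI and 158, 114 and 177 in wt, 1.91-fold, with an adjusted p of 0.0533. Irgm1, Iigp1, Gbp5 and Igtp differed by 1.69-fold, 1.63-fold, 1.55-fold and 1.51-fold, with adjusted p-values of 0.135 to 0.568. Every KI library was above every wt library for 8 of 9 members, Irgm1 being the exception, and this held for 10.8% of all genes. In every experiment KI was above wt for all 9 members, by 0.3 to 1.7 on the log2 scale. The members vary together, so they are not separate observations, and the share of all genes for which this held is not given here.

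How many members were called at 48 h turned on few libraries. Without the KI or the wt mouse of experiment 1 there were 0, with Gbp7 at adjusted p-values of 0.0632 and 0.0614, and without the KI mouse of experiment 5 there were 2. With KO 48 h replicate 1 and wt 48 h replicate 3 left out there were 7, all but Igtp and Iigp1, and DESeq2 and limma each called 5. Fitted on these groups alone there was 1, Gbp7. The fitted differences moved less than the calls, and Gbp7 stayed between 1.33 and 1.44 on the log2 scale over 16 alternatives. With experiment as a replicate block 4 were called, Irgm2 being the addition (adjusted p = 0.0278).

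Other measures were also compared between KI and wt at 48 h, and the marker sums below overlapped between the genotypes. On the first principal component, which separated naive from activated libraries, KI 48 h libraries lay at 32.1 to 45.1 and wt 48 h libraries at 47.3 to 60.4, while wt 24 h libraries lay at 23.8 to 48.8. All 6 B cell markers had positive differences of KI from wt (median log2 1.00, none called), summing to 126 to 254 CPM against 52.7 to 151 in wt. Of the 7 myeloid markers 6 had positive differences and none was called, with sums of 26.3 to 34.1 against 20.5 to 32.8 CPM. Of the 5 NK cell markers 3 had positive differences and none was called, with sums of 63.5 to 183 CPM in KI and 109 to 128 in wt. Ncr1 (log2 2.16), Klrb1c (2.44) and Klrb1b (1.74) were at or below 0.536 CPM in all 6 libraries, and Eomes (-0.15) and Klre1 (-0.15) had differences of the other sign. Memory-phenotype markers summed to 644 to 882 CPM in KI and 610.2 to 857 in wt. Of that list Cxcr3 was called higher in KI (log2 1.76, edgeR adjusted p = 0.0177), at 11.7 to 13.9 CPM against 3.32 to 4.31. Cd44, Ccl5 and Ly6c2 had positive differences and Il2rb, Eomes, Gzmm and Fasl negative ones, none called. The part of these measures in the GTPase levels was not tested.

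**Figure D4:**
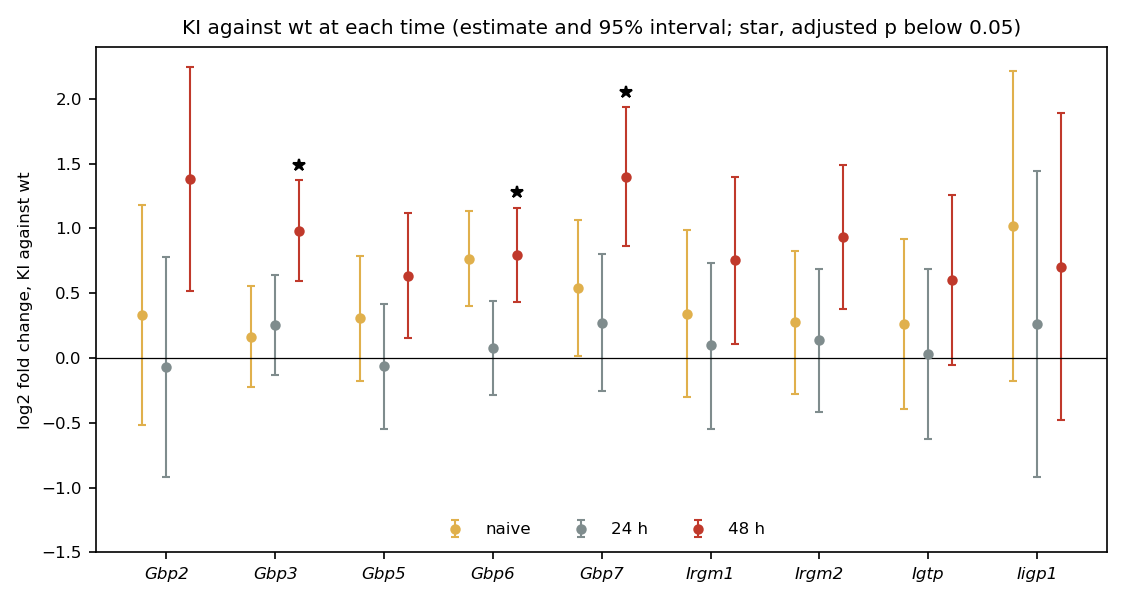
Fitted log2 fold change of KI against wt for each member in naive cells, at 24 h and at 48 h, with 95% intervals and a star where the adjusted p was below 0.05. At 48 h all 9 estimates lie between 0.60 and 1.40, and at 24 h all lie between -0.07 and 0.27.

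Whether the genotypes differed in their response over time was tested as an interaction. From naive to 48 h the difference was positive for 8 of 9 members, largest for Gbp2 (log2 1.05 ± 0.57), Gbp7 (0.86 ± 0.36) and Gbp3 (0.81 ± 0.26). None was called, against 0.387% of all genes, 2 had an unadjusted p under 0.05, and DESeq2 and limma called 0. Without both libraries that stand apart 0 were called in this and in the 24 h to 48 h comparison. From naive to 24 h 1 of 9 was positive, none was called (0% of all genes), 1 had an unadjusted p under 0.05, Gbp6 (log2 -0.69), and DESeq2 and limma called 0. From 24 h to 48 h, a comparison added after these values were seen, all 9 were positive, from 0.44 for Iigp1 to 1.45 for Gbp2. There 6 had an unadjusted p under 0.05, the lowest adjusted p was 0.577 (Gbp7), none was called by edgeR, DESeq2 or limma, and 0.00472% of all genes were called. No member's course was called different between KI and wt.

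In the libraries labelled KO, the 2 mice went apart at 48 h. Gbp2 had 114 and 135 CPM naive in replicates 1 and 5, and 129 and 753 at 48 h. Iigp1 had 24.1 and 32.1 CPM naive, and 10.9 and 193 at 48 h. Irgm1 had 149 and 178 CPM naive, and 76.8 and 257 at 48 h. For these 3 genes replicate 5 ended above its naive level, and replicate 1 near or below it. Over all 9 members, 5 were higher at 48 h than naive in replicate 1 (median log2 0.02, highest 1.3 for Gbp5) and 8 in replicate 5 (median log2 1.13). The members' summed level in replicate 1 was 798 CPM naive and 746 at 48 h, and in replicate 5 it went from 925 to 2656.

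Fitted over both mice, 4 members were called higher at 48 h than naive (23.6% of all genes): Gbp5 (3.85-fold), Iigp1 (3.62-fold), Gbp2 (3.54-fold) and Igtp (2.52-fold). Gbp7 was called lower, at 36.8 and 93.2 CPM against 113 and 125 naive (log2 -0.87 ± 0.31, adjusted p = 0.0286), as were 20.4% of all genes. These depend on the mouse. Without replicate 5, 3 members were called, and Iigp1 turned to -1.15 on the log2 scale. With both libraries that stand apart left out 8 were called, but not Gbp7 (adjusted p = 0.312), and fitted on these groups alone there were 0. The Iigp1 call (adjusted p = 0.0422) was lost with experiment (adjusted p = 0.0744) or mouse (adjusted p = 0.417) as a block.

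Against wt, no member was called in the libraries labelled KO, in naive cells (0.0236% of all genes) or at 48 h (0.0283% of all genes). None had an unadjusted p under 0.05 at either time, and DESeq2 and limma called 0. The ranges overlapped for all 9 members at both times. The fitted differences ran from -0.20 to 0.06 on the log2 scale naive and from -0.32 to -0.04 at 48 h, but for Gbp2 at 48 h the 95% interval reached from -1.16 to 0.75. With replicate 1 as the only KO mouse, assumed to vary like the other groups, 7 members were called at 48 h, and with replicate 5 as the only one 0 were. With both libraries that stand apart left out 0 were called. The interaction of this genotype with activation called 0 members by edgeR, DESeq2 and limma (0% of all genes), also without those libraries, with none at an unadjusted p under 0.05. Sex as a term in the fit changed no count in these comparisons. B cell markers summed to 159.9 to 1453 CPM in naive libraries labelled KO and 317 to 512 in naive wt. At 48 h these sums were 37.8 to 246 and 52.7 to 151 CPM. CD4+ T cell markers summed to 41 to 283 CPM against 52.8 to 89.8 naive, and 35.6 to 211 against 34.6 to 64.2 at 48 h. None of these markers was called between KO and wt, and their part in the GTPase levels was not tested.

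Of 13 genes of interferon gamma signalling, 3 rose and 3 fell in wt at 24 h (median log2 0.07), shares near the 26.3% of all genes called higher and the 22% called lower. Irf8, an interferon-induced transcription factor, rose (log2 2.63, adjusted p = 0.000274), as did Socs1, which damps the signal (log2 0.81, adjusted p = 0.0407). The receptor chain Ifngr2 (log2 -1.52), the kinase Jak1 (-0.86) and Socs3 (-1.96) fell.

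Ifng, the cytokine, took a different course. It had 1.88, 8.18 and 5.81 CPM at 24 h and 53.7, 37.2 and 134 at 48 h in wt (log2 3.82 ± 0.78, adjusted p = 0.00574), the time at which the members were lower. In KI at 48 h it had 5.95, 8.85 and 33.2 CPM, below every wt library, with a log2 difference of -2.23 ± 0.72 and an adjusted p of 0.0941. The receptor gene Ifngr1 had 220.3 to 305 CPM in KI and 123 to 229 in wt at 48 h (log2 0.67, adjusted p = 0.285).

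A list of 22 other interferon-inducible GTPases held further guanylate-binding proteins and immunity-related GTPases, and also the dynamin-like Mx1 and Mx2 and very large GTPases such as Gvin1. Of these, 4 rose and 7 fell in wt at 24 h, with a median log2 of -0.07, against 26.3% and 22% of all genes. Gbp4 (0.88), Gbp10 (1.43), Gm12250 (2.45) and Gm4951 (1.97) rose, while the antiviral GTPases Mx1 (-2.91) and Mx2 (-4.16) fell. At 48 h 5 of these 22 were called higher in KI than in wt and 0 lower, against 2.28% and 1.89% of all genes: Gbp4 (log2 1.41), Gbp11 (1.44), Gm4070 (1.40), Gbp9 (1.18) and Gbp8 (0.99). In naive cells 2 were called higher in KI, against 0.113% of all genes: Gbp10 (log2 1.49, adjusted p = 0.00585) and Mx2 (log2 1.99, adjusted p = 0.0499).

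Genes best known as targets of type I interferon mostly fell on activation. Of 28, 21 fell and 1 rose in wt at 24 h (median log2 -1.71), where 22% of all genes fell and 26.3% rose. Rsad2 (log2 -4.75), Oasl1 (-3.59), Ddx58 (-2.32) and Oas3 (-1.41) were among those that fell. In naive cells all 28 had positive differences of KI from wt (median log2 1.45) and 9 were called higher, against 0.113% of all genes, with Oas3 (log2 1.56), Phf11a (1.58), Dhx58 (1.39) and Ifit2 (0.90) at the lowest adjusted p-values, and Usp18, which damps type I signalling, was higher too (log2 1.66, adjusted p = 0.000164). At 48 h 3 of the 28 were called higher in KI and 3 lower (2.28% and 1.89% of all genes), with Ifit2 (0.67) among the higher and Bst2, Dhx58 (-0.83) and Oas3 (-0.66) the lower ones.

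Genes of partner systems were counted in the same way, where 0.113% of all genes were called between KI and wt in naive cells, 0.00472% at 24 h and 4.17% at 48 h, so that few calls say little of lists this short. Of 15 antigen presentation genes, Cd274, which encodes PD-L1, was called higher in KI at 48 h (log2 0.81, adjusted p = 0.0388), and 14 were not called. No gene was called in either direction in KI against wt at any time among 11 genes of Atg8 conjugation, the autophagy system that works with the immunity-related GTPases, or among 8 inflammasome genes. The summed level of the Atg8 genes at 48 h was 534 to 599.9 CPM in KI and 533 to 593 in wt.

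Among themselves the members varied together, as a description over 22 libraries that share mice and groups. Pearson r between the log2 CPM of 2 members had a median of 0.812 over 36 pairs, from 0.069 to 0.988, and Gbp7 was the least alike, at 0.069 with Gbp5 and 0.226 with Igtp. After group means were subtracted, the median was 0.807 and the lowest 0.488, so mice that were high for 1 member within a group tended to be high for the rest. Against the mean pattern of the members, Ifng had r = -0.068. The 5 other genes most like that pattern were Mir6381 (0.958), Gm17173 (0.928), Bend3 (0.922), Gm37805 (0.922) and Lct (0.921). Mir6381 lies within Gbp2 on the opposite strand and shares 24 exon bases with it, so its counts cannot be taken as separate. After group means were subtracted, Gm12250 (0.955), Tgtp2 (0.947), Sumf1 (0.945), Proz (0.939) and Osgin2 (0.939) were the most alike, the first pair being immunity-related GTPases themselves.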

How the data were processed

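RNA was measured by stranded, paired-end mRNA sequencing in 22 libraries from 8 mice. Per the submitters' processing notes, TopHat2 2.1.0, Bowtie2 2.2.5, SAMtools 0.1.19, featureCounts and DESeq2 1.6.3 were used on GRCm38 (mm10), with no roles given. The authors deposited whole-number counts per gene, log2 values, which a check against the counts showed to be log2 of the count over 1 factor per library plus 1, a variance-stabilised table on a log2-like scale, and FPKM, which are those normalized counts over 1 length per gene. FPKM were used only for the order of levels, and the variance-stabilised values only in the limma alternative. There were 0 columns of other samples.

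Genes were kept by filterByExpr (minimum count 10, total 15), scaled by TMM and fitted as 8 group means over all libraries (14 residual degrees of freedom) with edgeR 4.0.16 in R 4.3.3. Each comparison used its quasi-likelihood F test with robust moderation and Benjamini-Hochberg adjustment over 21183 genes, with calls under 0.05. CPM are counts scaled to TMM-adjusted library totals. Alternatives used DESeq2 1.42.0 and limma 3.58.1, other scalings, filters, blocks and left-out mice. The method was tested on simulated counts with the same spread for all genes and independent libraries. They held no pairing by mouse or experiment, so they do not show how the method deals with it. Experiment and mouse numbers come from the labels and pair the libraries: deviations from group means correlated at a median r of 0.44 over 9 KI and wt pairs of 1 experiment and time, with 8 over 0.1, and 0.229 over 20 pairs of 1 mouse. Libraries of 1 mouse are not independent, which the model without a block ignores. Members, gene lists and alternatives were chosen with earlier results of these data known, and up to 4 called genes of a list, those with the lowest adjusted p, were named beside any that a result turns on. The 24 h to 48 h interaction, the fit without robust moderation and the fit without both libraries that stand apart were added after the data were seen.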

Additional observations from a re-analysis of the deposited data

How the results depend on the processing

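The number of members called kept within 1.5 times of that reported in 209 of 237 refits. For wt 48 h against 24 h (1 reported), upper-quartile scaling and limma gave 2, DESeq2 and leaving out both libraries that stand apart gave 3, and DESeq2 size factors in edgeR, no filter on low counts, the compared groups only and any left-out mouse gave 0. For wt 48 h against naive (7 reported), leaving out a mouse gave 4 to 6. For the libraries labelled KO at 48 h against naive (5), no filter and limma gave 3, the compared groups only 0, both libraries left out 8, and a left-out mouse 3 to 6. For KI against wt, naive cells (0) gave 2 with the compared groups only and 1 with DESeq2, and 48 h (3) gave 1 with the compared groups only, 5 with DESeq2 and limma, 7 with both libraries left out and 0 to 3 with a mouse left out. Leaving out a mouse gave 0 to 7 for KO against wt at 48 h and 0 to 2 for the KO interaction (0 reported in each), and the KI interaction to 48 h gave 1 with the compared groups only. With a replicate block for experiment, counts were 8, 7 and 1 for the 3 wt comparisons over time, 6, 6 and 0 for those of KI, 4 for KO, and 0, 0 and 4 for KI against wt naive, at 24 h and at 48 h, and a block by mouse gave 7 for KI at 24 h. Iigp1 in the libraries labelled KO (log2 1.86) turned to -1.15 without replicate 5 and was 2.59 without replicate 1. Where the compared groups only were fitted, or mice left out, fewer libraries entered. The cause of the other changes was not tested. Every member had at least 733 counts in each library, and the part of depth was not tested.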
